A study of Mus musculus with 9 samples.

Results

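The 10 genes described here are 4 ligands of the Notch pathway (Dll1, Dll4, Jag1 and Jag2), its 4 receptors (Notch1, Notch2, Notch3 and Notch4) and a pair of its transcriptional targets (Hes1 and Hey1). They were taken by gene symbol from a table of 25108 genes and gene models, and each symbol was found on 1 entry. The study sequenced RNA from whole retinas of 9 C57BL/6 samples at postnatal day 17, in 3 groups of 3. One group was wild type and lived in room air (RA WT), another was wild type with oxygen-induced retinopathy (OIR WT), and the last carried an IL-19 knockout and also had retinopathy (OIR KO). In this retinopathy model, pups breathe high oxygen, lose retinal capillaries, and then regrow abnormal vessels into a hypoxic retina once back in normal air. IL-19 is a cytokine of the interleukin-10 family. All 3 groups thus share strain, tissue and age, and the genotypes were compared within retinopathy, since knockout retinas from room air are not analysed here. The labels do not say whether the samples of a group are separate animals or how many animals each holds. The Y-linked gene Ddx3y was at 13.6, 0 and 6.80 FPKM in RA WT 1 to 3. It was at 0, 15.7 and 12.9 FPKM in OIR KO 1 to 3. Inside either group, the samples are therefore not all repeats of the same RNA. Every OIR WT sample expressed Ddx3y, so its values do not separate the samples there. The sample-to-sample spread behind the p-values may thus still be technical in part.

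Notch receptors are activated by Delta-like and Jagged ligands on a neighbouring cell. Proteases then release the intracellular part of the receptor, which enters the nucleus, binds the DNA-binding protein RBPJ and switches on genes of the Hes and Hey families of repressors. In sprouting retinal vessels, Dll4 is known as the ligand of endothelial tip cells, which signals through Notch1 in the stalk cells behind them to limit sprouting, with Jag1 as an opposing ligand. Notch4 is known as a receptor of endothelium and Notch3 as one of pericytes and vascular smooth muscle, while Notch1 and Hes1 also act in retinal progenitors and Müller glia, the radial glial cells of the retina.

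Values are FPKM, fragments normalised to gene length and library size, so levels can be compared between genes per length. The number of reads per library is unknown, and rough estimates of relative depth, from a read step that only 26.7 to 29.9% of low values matched, ran from 0.853 to 1.14 of their mean. All libraries carried retinal RNA, with Gnat1, the rod transducin gene, between 2764 and 4115 FPKM. Along the leading principal component, which held 47.2% of the variance, OIR WT libraries 1, 2 and 3 sat at 28.9, 11.7 and 31.3 and OIR KO libraries 1, 2 and 3 at 7.96, 32.5 and -3.30, while RA WT lay between -37.2 and -35.9. OIR KO 2 therefore stood apart from the other knockout libraries, and OIR WT 2 from the other libraries of its group. RA WT 2 and OIR KO 1 had all 4 Y-linked genes read here (Uty, Kdm5d, Ddx3y, Eif2s3y) at 0. Among the libraries that expressed them, RA WT 3 was lowest in each (Ddx3y at 6.80 FPKM, beside 13.6 in RA WT 1). Every OIR WT library expressed all 4, so Y-linked levels were uneven between the groups. Il19 was listed at 0 in all libraries but RA WT 1 (0.0406 FPKM), so its level did not check the genotype labels.

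Promoter windows of the 3 members with the largest log2 changes in wild-type retinopathy are shown, because the levels of these genes were higher together and the windows lie outside annotated untranslated regions. Each window is the 250 bases before the RefSeq start, from RefSeq on GRCm38.p6, printed 5′ to 3′ on the gene's strand, with capitals marking matches to the motifs described next.
Dll4 (chr2:119325534-119325783, plus strand): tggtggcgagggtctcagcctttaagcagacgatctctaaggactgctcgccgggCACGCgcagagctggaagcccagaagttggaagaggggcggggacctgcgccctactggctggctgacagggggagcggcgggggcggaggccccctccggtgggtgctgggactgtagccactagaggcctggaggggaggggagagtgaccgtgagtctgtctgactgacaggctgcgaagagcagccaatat
Notch1 (chr2:26503823-26504072, minus strand): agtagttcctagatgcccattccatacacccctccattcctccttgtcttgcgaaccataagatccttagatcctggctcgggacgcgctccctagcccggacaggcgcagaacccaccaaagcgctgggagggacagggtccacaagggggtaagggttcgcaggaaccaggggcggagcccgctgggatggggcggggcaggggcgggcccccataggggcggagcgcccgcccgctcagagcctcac
Notch3 (chr17:32166891-32167140, minus strand): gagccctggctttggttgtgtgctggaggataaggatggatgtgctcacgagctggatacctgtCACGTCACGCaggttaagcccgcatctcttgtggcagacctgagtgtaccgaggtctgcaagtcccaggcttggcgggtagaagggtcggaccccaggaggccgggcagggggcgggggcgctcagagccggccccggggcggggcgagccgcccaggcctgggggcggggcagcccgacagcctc
The motifs were the RBPJ core TGGGAA and both forms of the core of the hypoxia response element, ACGTG and GCGTG, searched on both strands. Windows were found for 8 of the 10 members, not for Hes1 and Hey1. None of those 8 held TGGGAA, which stood in 21.6% of all 32851 promoter windows of this length. GCGTG stood in the windows of 7 of the 8, all but Notch1, against 28.2% of all windows. The member windows were rich in G and C (56.0 to 87.2%, against a median of 52.4%). Among the 12716 windows with at least 56.0% G and C, GCGTG stood in 49.1%, ACGTG in 21.9% and TGGGAA in 18.5%. In Dll4, CACGC, the reverse complement of GCGTG, lay at bases -195 to -191 from the start. In Notch3, CACGT at -186 to -182 and CACGC at -181 to -177 stood side by side, and Notch3 was the only member with ACGTG, which 16.6% of all windows held. A match is a string of letters and not an observed binding site, and a missing match says only that these letters are not in this window.

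Every member was expressed in every library, and the lowest value of all was 0.887 FPKM, so all 10 passed the filter on low values in each group. In RA WT the order of mean levels was Jag1, Hes1, Jag2, Hey1, Dll1, Notch1, Notch2, Notch4, Notch3 and Dll4. The libraries of 4 pairs of neighbours in that order overlapped, namely Hes1 with Jag2, Dll1 with Notch1, Notch4 with Notch3, and Notch3 with Dll4. Both retinopathy groups had another order, which was the same in the pair: Jag1, Jag2, Hes1, Notch1, Hey1, Dll1, Notch2, Notch3, Dll4 and Notch4. There, neighbours overlapped from Jag2 to Hey1 and from Notch2 to Notch4 in both groups, while Jag1 above Jag2, Hey1 above Dll1 and Dll1 above Notch2 did not. Notch1 moved from below Hey1 and Dll1 in RA WT to between Hes1 and Hey1 in retinopathy, and Dll4 moved from the lowest place to above Notch4.

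**Figure D1:**
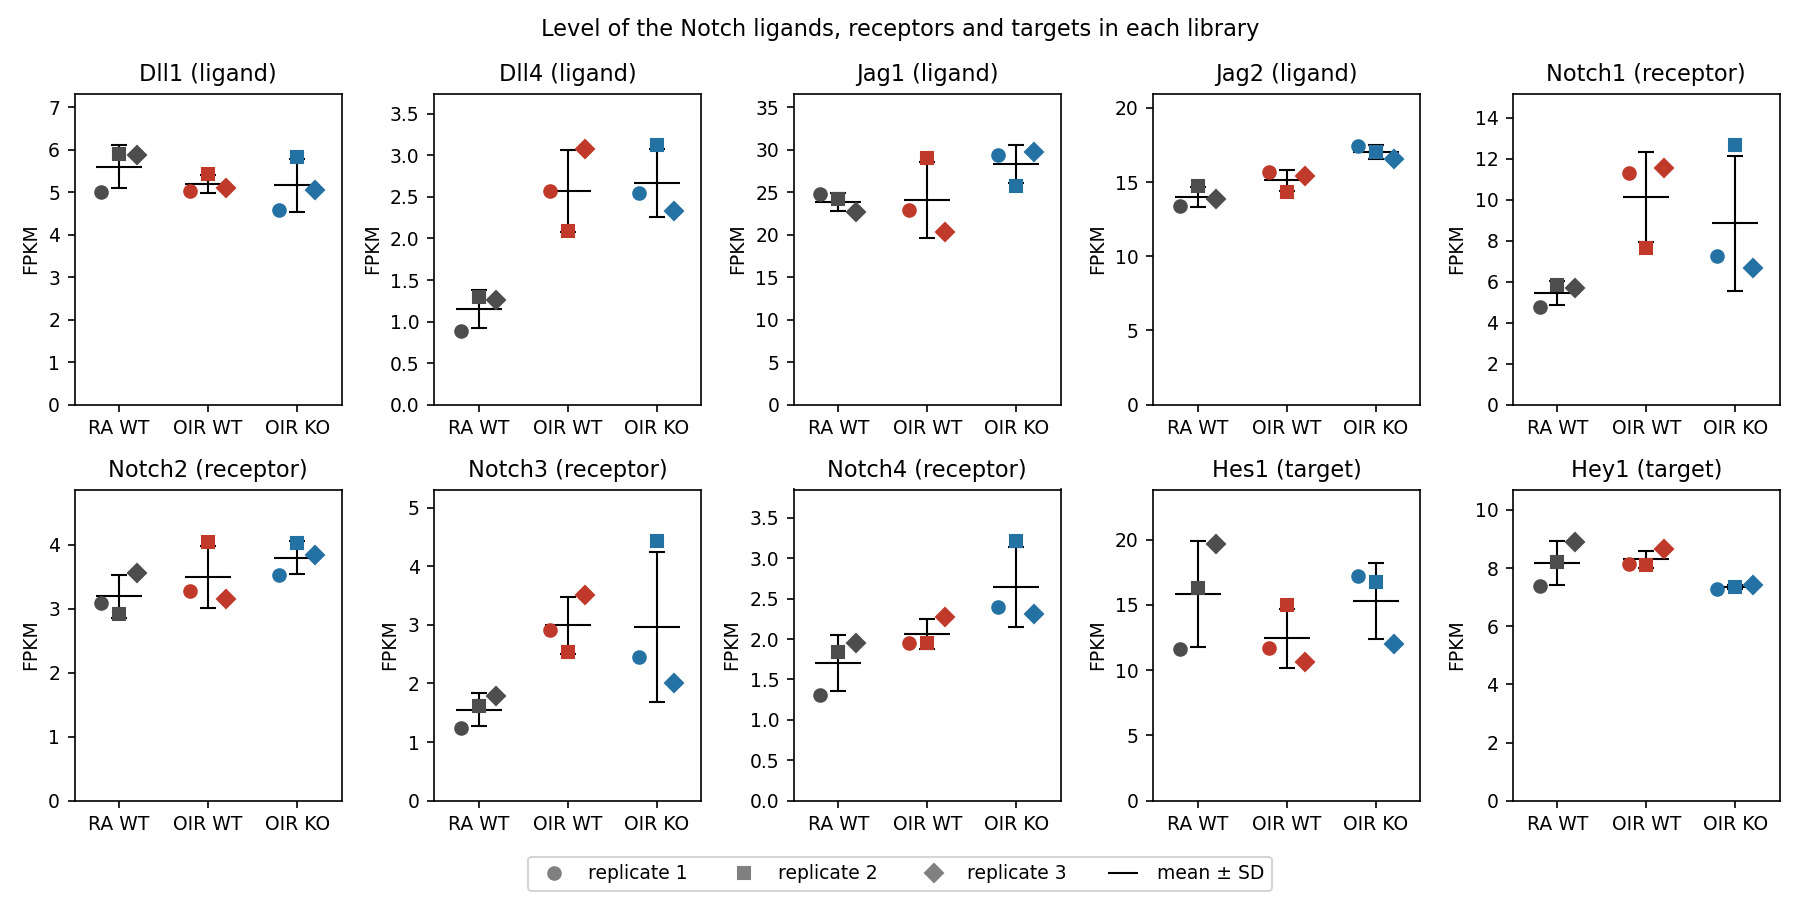
Level of each member in FPKM (vertical axes, starting at 0) in the 3 libraries of RA WT, OIR WT and OIR KO; points are libraries, with the shape giving the replicate number, and bars are the mean and SD. Dll4 lies between 0.887 and 1.30 FPKM in room air and between 2.09 and 3.12 FPKM in all 6 retinopathy libraries, while Notch1 and Notch3 are highest in OIR KO 2.

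In wild-type retinopathy, Dll4 and Notch1 rose against room air, and the other 8 members did not pass the test. Those 2 of 10 members (20%) stand beside 16.0% of the 15678 genes tested that were called in this comparison at an adjusted p under 0.05 (8.04% higher, 7.92% lower). The groups did not overlap for 4 of 10 members, all higher in retinopathy (Dll4, Notch1, Notch3 and Notch4), beside 35.0% of all genes tested (17.8% higher, 17.2% lower). The median change of the 10 members was 0.11 on the log2(FPKM + 0.5) scale, and that of all genes tested was 0.02. Every log2 change given here is on that scale, where low genes show less than their true fold. In whole-retina RNA, a change in the number of cells of a type and a change in RNA per cell cannot be told apart.

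Among the ligands, Dll4 (chr2:119325784-119335962 on GRCm38 with GENCODE M21, plus strand), the ligand of tip and arterial endothelial cells, was the one that rose. It was at 0.887, 1.30 and 1.26 FPKM in RA WT 1 to 3, at 2.57, 2.09 and 3.07 FPKM in OIR WT 1 to 3, and at 2.54, 3.12 and 2.33 FPKM in OIR KO 1 to 3. All 6 retinopathy libraries lay above all 3 room air libraries, and the retinopathy groups overlapped each other. The mean rose from 1.15 ± 0.228 FPKM (SD, n = 3) to 2.58 ± 0.493 FPKM in OIR WT, a ratio of 2.24 (log2 0.90, SE 0.17, adjusted p = 0.00933 by limma). In OIR KO it was 2.66 ± 0.410 FPKM, a ratio of 2.32 to room air (log2 0.94, SE 0.17, adjusted p = 0.0108). Between the retinopathy groups the difference in Dll4 was 0.045 on the log2 scale, with a 95% interval from -0.34 to 0.43 (adjusted p = 0.970). The rise of Dll4 passed the test under all 19 alternative settings in both comparisons with room air, with log2 changes from 0.73 to 1.10 in OIR WT and from 0.77 to 1.15 in OIR KO.

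Dll1 (chr17:15367354-15376872, minus strand), the Delta-like ligand best known from neural progenitors, was at 5.01, 5.90 and 5.88 FPKM in the RA WT libraries, 5.04, 5.43 and 5.10 in OIR WT, and 4.59, 5.84 and 5.05 in OIR KO. Its 3 groups overlapped throughout, and its change in OIR WT was -0.098 on the log2 scale (95% interval -0.36 to 0.16, adjusted p = 0.615). Jag1 (chr2:137081456-137116644, minus strand), the most abundant member, was at 24.8, 24.2 and 22.7 FPKM in the RA WT libraries, 22.9, 29.1 and 20.4 in OIR WT, and 29.4, 25.7 and 29.8 in OIR KO. Room air lay inside the range of OIR WT, with a change of -0.002 (95% interval -0.28 to 0.28, adjusted p = 0.994), whereas all OIR KO libraries lay above room air without passing the test (log2 0.24, adjusted p = 0.254). Jag2 (chr12:112907819-112929776, minus strand), the second Jagged ligand, was at 13.4, 14.7 and 13.9 FPKM in the RA WT libraries, 15.7, 14.3 and 15.4 in OIR WT, and 17.5, 17.0 and 16.6 in OIR KO. The OIR KO libraries lay above all 6 wild-type libraries, and the wild-type groups overlapped. Its difference of 0.27 between OIR KO and RA WT (SE 0.08) missed the threshold (adjusted p = 0.0551), and it was called only with quantile normalization among the 19 alternatives (adjusted p = 0.0494).

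Because FPKM is per length, the ligands can also be given as shares of their summed level. From RA WT over OIR WT to OIR KO, that sum was 44.7 ± 1.30, 47.0 ± 3.55 and 53.2 ± 1.24 FPKM. Dll4 made up 2.01, 2.82 and 2.88% of it in RA WT, 5.57, 4.10 and 6.99% in OIR WT, and 4.71, 6.03 and 4.33% in OIR KO. Every retinopathy library held a larger Dll4 share than every room air library, by 2.98 percentage points on average in OIR WT and 2.45 in OIR KO. The exact two-sided permutation test gave p = 0.1 for both, the smallest that 3 against 3 libraries allow, and 0.2 after adjustment over the 6 share tests run. Between OIR KO and OIR WT the Dll4 share differed by -0.53 points (exact permutation p = 0.7, adjusted 0.84). Jag1 kept the largest share in every library, 46.4 to 57.1%, followed by Jag2 with 28.1 to 35.0% and Dll1 with 8.50 to 13.4%.

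**Figure D2:**
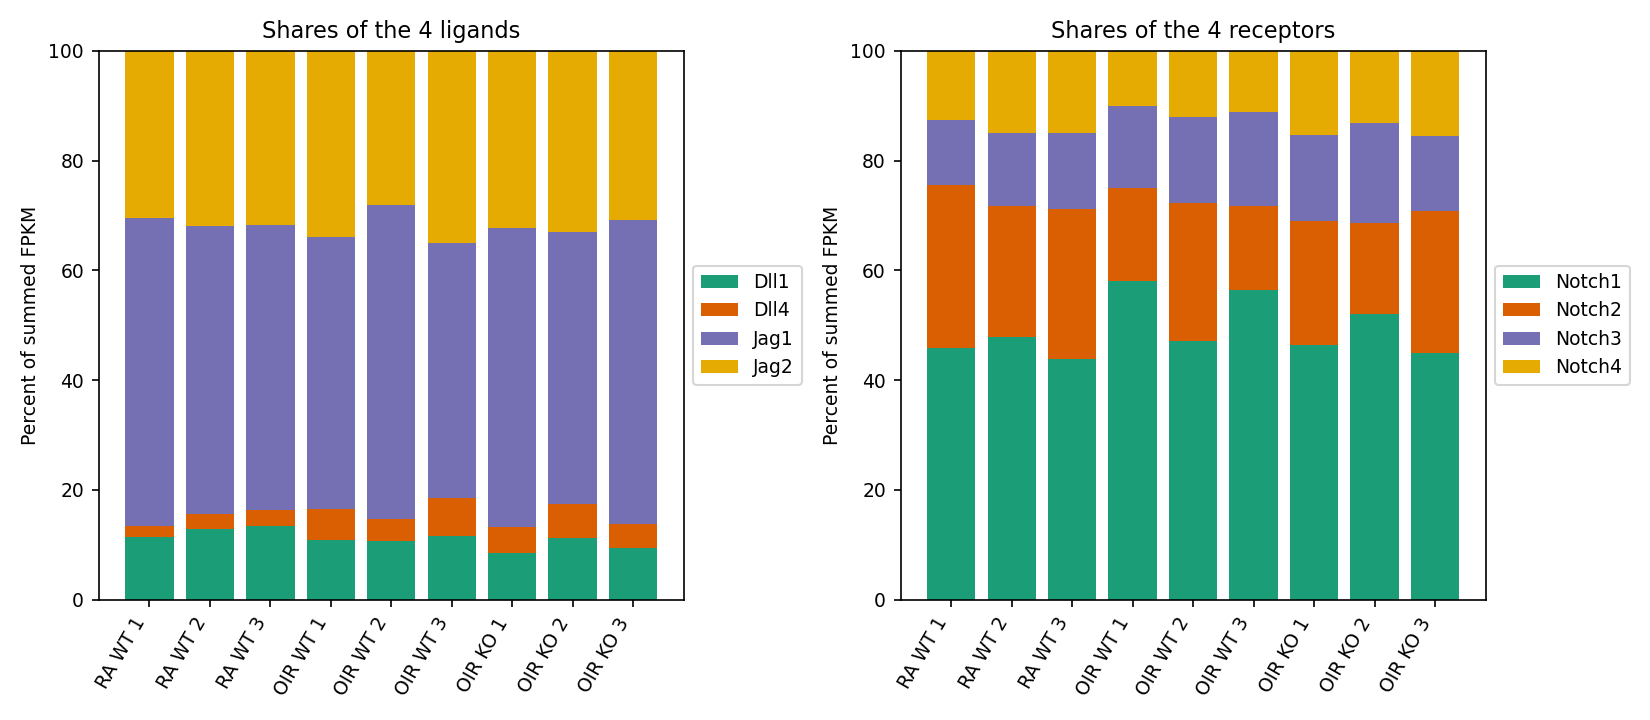
Share of each ligand in the summed FPKM of the 4 ligands (left) and of each receptor in the summed FPKM of the 4 receptors (right), in percent, with 1 stacked bar per library. The Dll4 segment is 2.01 to 2.88% in room air and 4.10 to 6.99% in retinopathy, and the Notch1 segment is largest in every library.

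Of the receptors, Notch1 (chr2:26457903-26516663, minus strand) was the most abundant in every library and the only one that passed the test in OIR WT. It was at 4.77, 5.86 and 5.70 FPKM in the RA WT libraries, 11.3, 7.63 and 11.5 in OIR WT, and 7.26, 12.7 and 6.67 in OIR KO. All retinopathy libraries lay above room air, with OIR WT 2 and OIR KO 1 and 3 nearest to it. Its mean went from 5.45 ± 0.588 to 10.2 ± 2.19 FPKM in OIR WT, a ratio of 1.86 (log2 0.82, SE 0.23, adjusted p = 0.0418). In OIR KO, at 8.86 ± 3.30 FPKM, it did not pass the test against room air (log2 0.60, 95% interval 0.079 to 1.13, adjusted p = 0.131), and without OIR KO 2 the difference was 0.33 (adjusted p = 0.338). Its difference between the retinopathy groups did not pass the test either (log2 -0.22, 95% interval -0.74 to 0.31, adjusted p = 0.809). The Notch1 call in OIR WT held in 9 of 19 alternatives and was lost in 10. Leaving out any 1 of the room air libraries ended it (adjusted p = 0.109, 0.0852 and 0.0974 for RA WT 1, 2 and 3), as did leaving out OIR KO 1 (adjusted p = 0.0532), OIR WT 1 (adjusted p = 0.139) or OIR WT 3 (adjusted p = 0.130), with log2 changes of 0.72 to 1.01 over the 19 settings.

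Notch3 (chr17:32120820-32166852, minus strand), the mural cell receptor, was at 1.24, 1.62 and 1.79 FPKM in the RA WT libraries, 2.92, 2.55 and 3.52 in OIR WT, and 2.46, 4.43 and 2.01 in OIR KO. As with Notch1, every retinopathy library was above room air and OIR KO 2 was the highest of all. Its means in room air, OIR WT and OIR KO were 1.55 ± 0.281, 2.99 ± 0.490 and 2.96 ± 1.29 FPKM. The ratio of OIR WT to room air was 1.93, beside 1.86 for Notch1. The change of 0.77 in OIR WT (SE 0.24, 95% interval 0.23 to 1.31) just missed the threshold (adjusted p = 0.0562). It was called in 3 of 19 alternatives, without OIR KO 2 (adjusted p = 0.0128), without OIR KO 3 (0.0401) and with only the 2 groups compared (0.0195). In OIR KO the change was 0.71 (adjusted p = 0.0906). That difference was 0.42 without OIR KO 2 (adjusted p = 0.238) and 0.91 without OIR KO 3, where it was called (adjusted p = 0.0400).

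Notch4 (chr17:34564268-34588503, plus strand), the endothelial receptor, was at 1.31, 1.85 and 1.95 FPKM in the RA WT libraries, 1.95, 1.96 and 2.28 in OIR WT, and 2.40, 3.21 and 2.31 in OIR KO. The groups followed each other upward without overlap, but RA WT 3 and OIR WT 1 nearly touched. None of its differences passed the test, with log2 0.23 (adjusted p = 0.390) from room air to OIR WT, 0.28 (adjusted p = 0.626) from there to OIR KO, and 0.51 (95% interval 0.14 to 0.88, adjusted p = 0.0781) between RA WT and OIR KO. Notch2 (chr3:98013527-98150361, plus strand), a receptor of many cell types, was at 3.08, 2.92 and 3.56 FPKM in the RA WT libraries, 3.28, 4.05 and 3.15 in OIR WT, and 3.53, 4.03 and 3.84 in OIR KO. Its groups overlapped in all 3 comparisons, and its change in OIR WT was 0.11 (95% interval -0.18 to 0.40, adjusted p = 0.607).

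Summed over the 4 receptors, the level in RA WT, OIR WT and OIR KO was 11.9 ± 1.34, 18.7 ± 2.24 and 18.3 ± 5.27 FPKM. Notch1 made up 45.9 ± 1.99%, 53.8 ± 5.86% and 47.8 ± 3.74% of it in the same order. Notch2 made up 27.0 ± 2.91%, 19.1 ± 5.18% and 21.7 ± 4.72%. Notch4 made up 14.2 ± 1.43%, 11.1 ± 1.03% and 14.7 ± 1.32%, and OIR WT lay below both other groups without overlap. The Notch3 share was 11.9, 13.2 and 13.7% in RA WT, 15.0, 15.7 and 17.2% in OIR WT, and 15.7, 18.2 and 13.5% in OIR KO. OIR WT and RA WT did not overlap in it (3.02 points, exact permutation p = 0.1, adjusted 0.2), while OIR KO 3 lay within room air (2.86 points for OIR KO against RA WT, exact permutation p = 0.2, adjusted 0.3). For OIR KO against OIR WT the difference in this share was -0.15 points (exact permutation p = 0.9, adjusted 0.9).

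Neither target, Hes1 or Hey1, passed the test in any of the 3 comparisons. Hes1 (chr16:30064384-30067796, plus strand), a repressor that keeps progenitors undifferentiated, was at 11.6, 16.3 and 19.6 FPKM in the RA WT libraries, 11.7, 15.0 and 10.7 in OIR WT, and 17.2, 16.7 and 11.99 in OIR KO. It varied widely inside each group and the groups overlapped, with a change of -0.32 in OIR WT (SE 0.21, 95% interval -0.78 to 0.15, adjusted p = 0.340). Hey1 (chr3:8663359-8667256, minus strand), a repressor known from arterial endothelium, was at 7.38, 8.22 and 8.88 FPKM in the RA WT libraries, 8.15, 8.11 and 8.64 in OIR WT, and 7.28, 7.34 and 7.42 in OIR KO. Its change in OIR WT was 0.026 (95% interval -0.18 to 0.24, adjusted p = 0.884). OIR KO lay below OIR WT in all libraries, with a difference of -0.16 that did not pass the test (95% interval -0.37 to 0.045, adjusted p = 0.620).

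**Figure D3:**
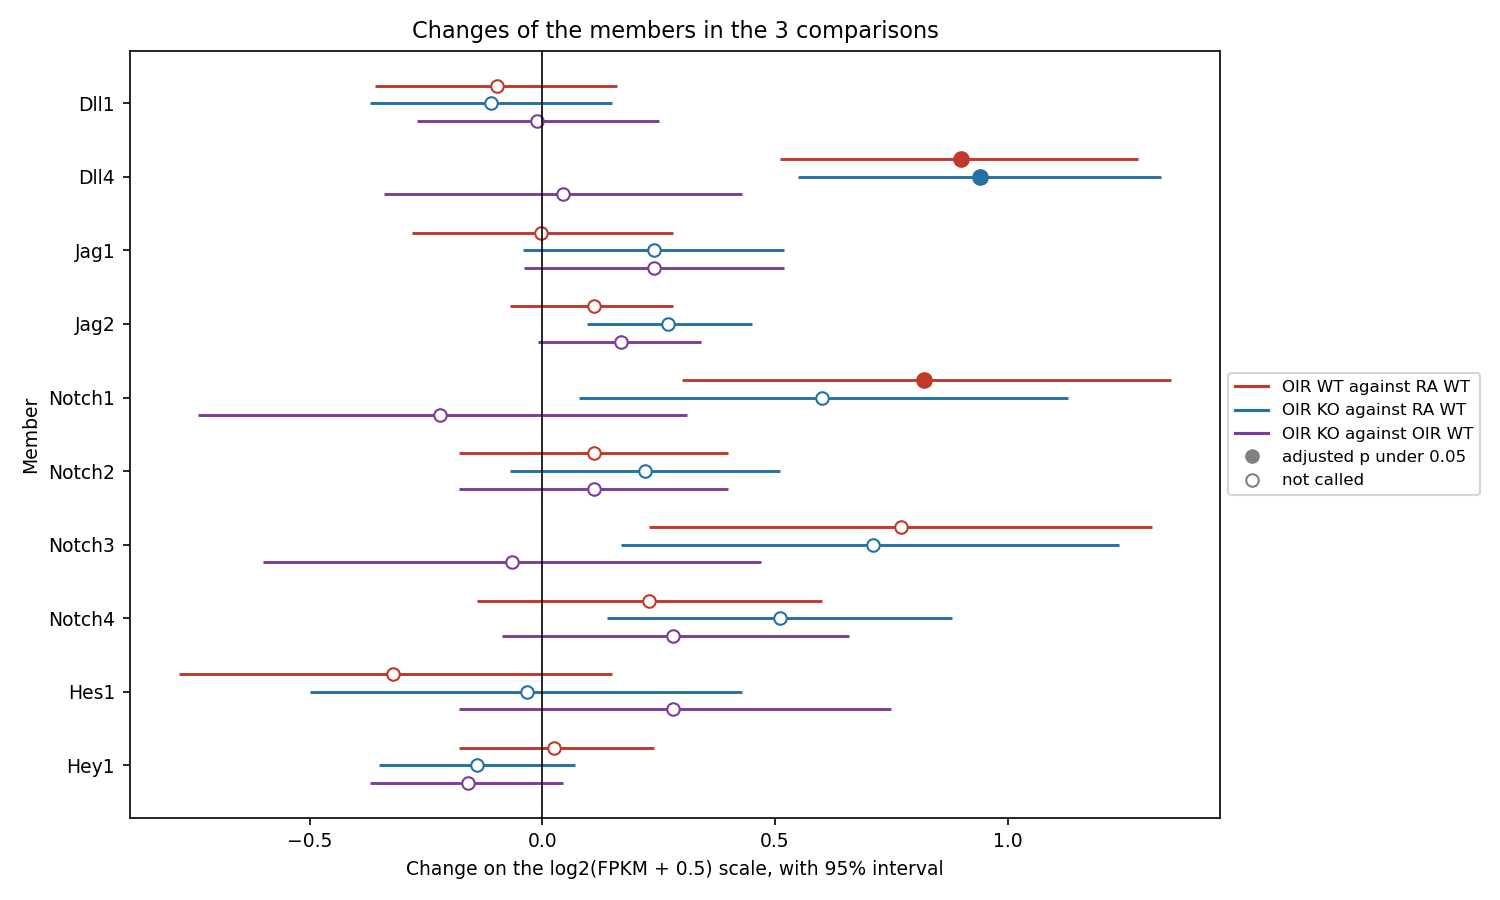
Change of each member on the log2(FPKM + 0.5) scale (horizontal axis) with its 95% interval from limma, in 3 comparisons; filled points have an adjusted p under 0.05. Dll4 is filled at 0.90 and 0.94 against room air, Notch1 is filled at 0.82 in wild type, and no point is filled for OIR KO against OIR WT.

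The knockout was compared with wild type inside retinopathy to ask what the absence of IL-19 changes there. No member was called by limma in this comparison, beside 0.134% of all genes tested that were called (0.0574% higher, 0.0765% lower). None reached an unadjusted p under 0.05 either, beside 1554 of the 15678 genes tested that did. No member was called in any of the 19 alternatives either. The groups did not overlap for 3 of 10 members, with Jag2 and Notch4 higher and Hey1 lower in the knockout, beside 17.7% of all genes tested (9.73% higher, 7.98% lower). Jag2 came nearest to the threshold (log2 0.17, 95% interval -0.01 to 0.34, unadjusted p = 0.0617, adjusted p = 0.538). The median member change was 0.08, beside -0.003 for all genes. The 95% interval ran from -0.60 to 0.47 for Notch3 and from -0.74 to 0.31 for Notch1, so that a missed threshold does not show equal levels.

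Against room air, the knockout with retinopathy showed 1 called member, Dll4, of 10 (10%), beside 10.4% of all genes tested (4.75% higher, 5.69% lower). The groups did not overlap for 6 of 10 members, all higher (Dll4, Jag1, Jag2, Notch1, Notch3 and Notch4), beside 32.7% of all genes tested (17.3% higher, 15.4% lower). The median member change was 0.26, beside 0.02 for all genes. Since OIR KO differs from RA WT in both genotype and retinopathy, their parts cannot be told apart in any difference between these groups. Both comparisons with room air use the same 3 control libraries, so their values are set side by side and not counted as independent.

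The genes around the members were read from a list of 57 other Notch pathway genes, of which 52 passed the filter; Dll3, Neurl1b, Hes2, Hes3 and Hes7 did not. In OIR WT, 5 rose and 4 fell against room air; in OIR KO, 3 rose and 1 fell. Read against 16.0% and 10.4% of all genes tested, these 9 and 4 of 52 genes lay near the background or below it. Dlk1 and Neurl3 passed the filter only through retinopathy libraries, since fewer than 3 room air libraries reached 0.5 FPKM, so their rises are partly fixed by that filter. Among non-classical ligands, Dner, a neuronal surface ligand, was at 33.7, 33.0 and 36.9 FPKM in the RA WT libraries, 18.3, 19.6 and 20.4 in OIR WT, and 15.6, 13.5 and 20.2 in OIR KO. All room air libraries lay above all retinopathy libraries, and Dner fell in both (log2 -0.81, adjusted p = 0.00469, and -1.07, adjusted p = 0.00284), under all 19 alternatives each. Dlk1, a Delta-like protein without the receptor-activating domain, rose from 0.0428 ± 0.0284 to 0.686 ± 0.109 FPKM between room air and OIR KO (log2 1.12, SE 0.30, adjusted p = 0.0408), a call that held in 6 of 18 alternatives. In OIR WT, with 0.620 ± 0.541 FPKM, Dlk1 did not pass the test (adjusted p = 0.0605).

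Lfng, a sugar transferase that changes which ligands a Notch receptor answers to, was the 1 gene of 5 in the glycosylation group that was called, in OIR WT. It was at 6.35, 9.89 and 9.70 FPKM in the RA WT libraries, 6.34, 4.50 and 5.06 in OIR WT, and 12.2, 11.3 and 10.8 in OIR KO. OIR WT was lowest and OIR KO highest, with RA WT 1 almost level with OIR WT 1. Lfng fell in OIR WT (log2 -0.64, SE 0.17, adjusted p = 0.0329), a call that held in 11 of 19 alternatives and ended when 1 of 4 libraries was left out: OIR WT 2 (adjusted p = 0.0903), OIR WT 3 (adjusted p = 0.0942), RA WT 2 (adjusted p = 0.105) or RA WT 3 (adjusted p = 0.110). Between OIR KO and OIR WT it differed by 1.05 (SE 0.17, 95% interval 0.66 to 1.44), a ratio of 2.15, with an adjusted p of 0.0680. Of the 19 alternatives, only leaving out RA WT 1 brought it past the threshold (adjusted p = 0.0181), and the highest adjusted p was 0.276. None of the 52 tested pathway genes was called by limma between the retinopathy groups, and 4, Lfng among them, had an unadjusted p under 0.05, beside 1554 of the 15678 genes tested.

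In the group that internalises ligands, the ubiquitin ligase Neurl3 rose in OIR WT from 0.420 ± 0.122 to 1.26 ± 0.204 FPKM (log2 0.94, adjusted p = 0.0166) and in OIR KO to 1.19 ± 0.454 FPKM (log2 0.85, adjusted p = 0.0323). Leaving out OIR WT 1 ended the former call (adjusted p = 0.0679), and that in OIR KO held in 12 of 19 alternatives. Its relative Neurl1a rose in OIR WT (log2 0.51, adjusted p = 0.0420; 10 of 19 alternatives). Dtx4, a ubiquitin ligase of receptor turnover, fell in OIR WT from 10.9 ± 0.658 to 7.63 ± 0.833 FPKM (log2 -0.49, adjusted p = 0.0121) and under all 19 alternatives. None of the 10 proteases that cut the receptor, ADAM and gamma-secretase subunits and Furin, was called by limma in any of the 3 comparisons. At an unadjusted p under 0.05 they numbered 3 in OIR WT against room air, beside 4771 of 15678 genes tested, 3 in OIR KO against room air, beside 4320, and 0 between the retinopathy groups.

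In the nuclear complex, 2 of 16 genes rose and 1 fell in OIR WT, beside 8.04% higher and 7.92% lower of all genes tested. None of the 16 was called in OIR KO. Rbpj, the DNA-binding protein of the pathway, rose from 8.09 ± 0.270 to 10.7 ± 0.826 FPKM (log2 0.38, adjusted p = 0.0446), and the corepressor Ctbp2 rose from 83.1 ± 4.02 to 108 ± 7.21 FPKM (log2 0.38, adjusted p = 0.0336). These calls held in 6 and 10 of 19 alternatives, so both were near the threshold. Among other targets, Hey2 was at 5.09, 6.40 and 4.65 FPKM in the RA WT libraries, 11.7, 8.43 and 12.3 in OIR WT, and 7.40, 12.2 and 6.43 in OIR KO. As for Notch1, OIR WT 2 was the lowest of its group and OIR KO 2 the highest. Hey2 rose in OIR WT (log2 0.93, adjusted p = 0.0245; 13 of 19 alternatives, lost when replicate 1 or 3 of either wild-type group was left out) and did not pass in OIR KO (log2 0.60, adjusted p = 0.125). Heyl, a target known from mural cells, rose in OIR KO from 0.891 ± 0.111 to 1.79 ± 0.619 FPKM (log2 0.69, adjusted p = 0.0439; 7 of 19 alternatives) and did not pass in OIR WT, at 1.56 ± 0.0762 FPKM (adjusted p = 0.0650).

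**Figure D4:**
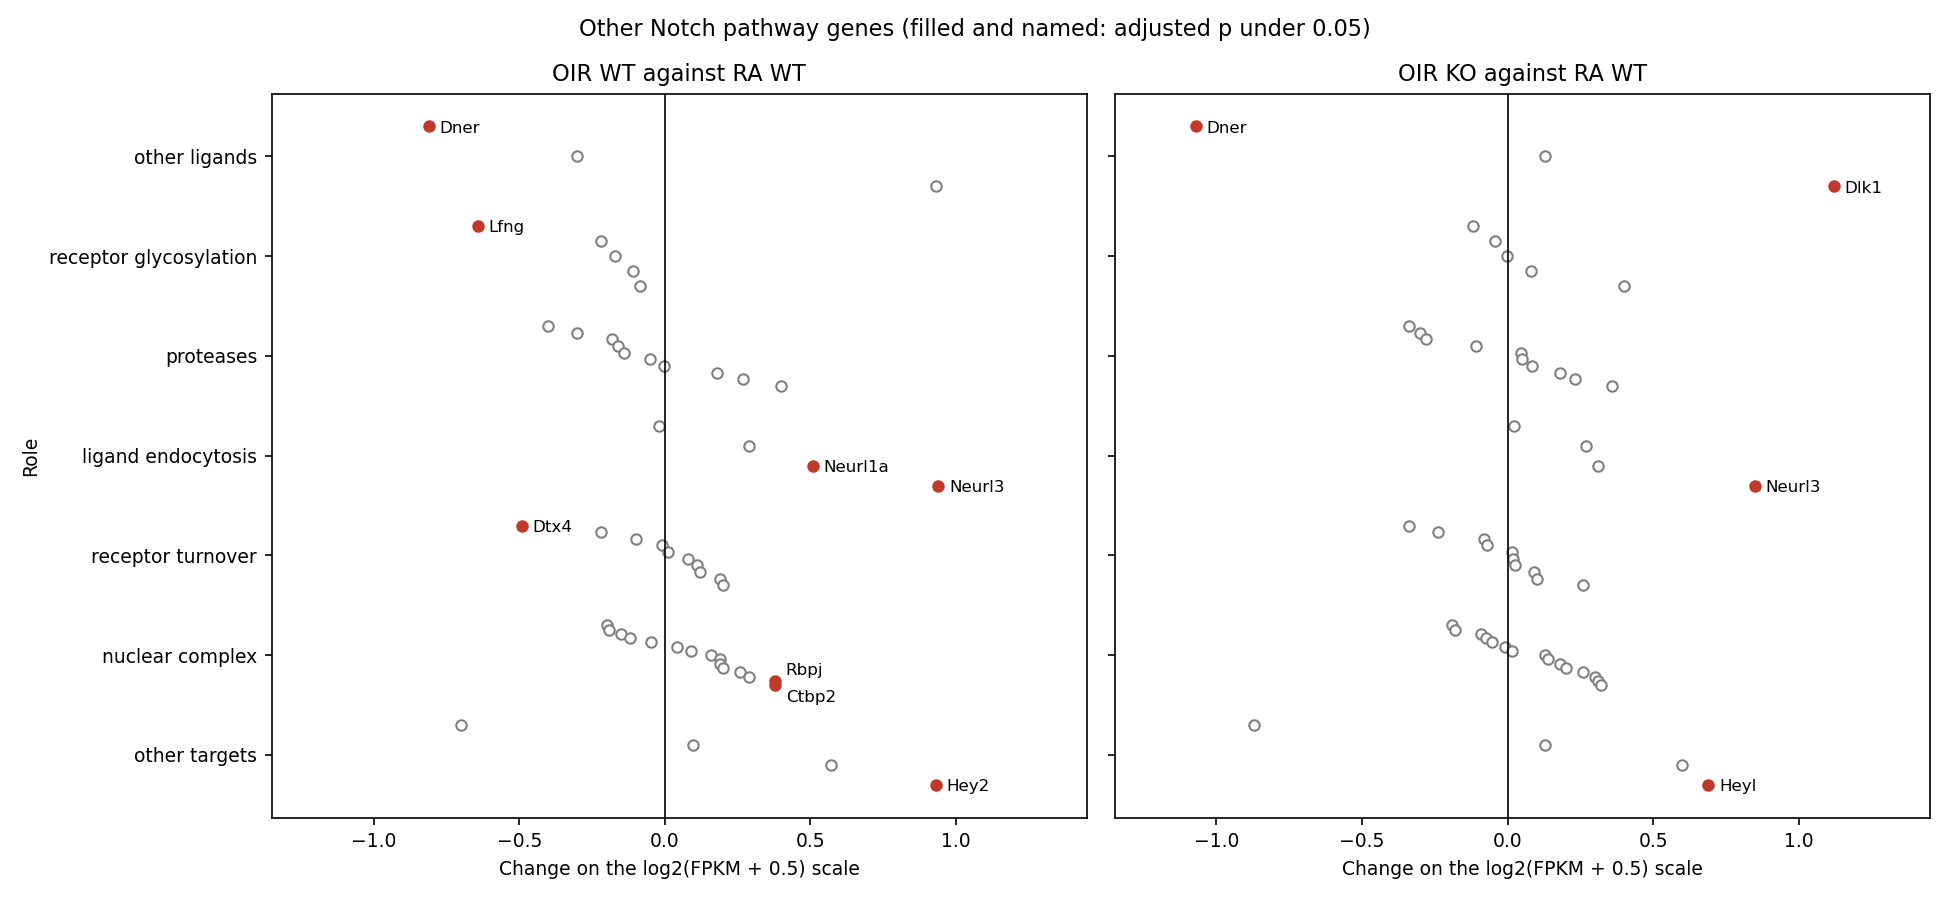
Change of tested pathway genes other than the members on the log2(FPKM + 0.5) scale, by role, in OIR WT (left) and OIR KO (right) against RA WT; filled, named points have an adjusted p under 0.05. Dner is the lowest point in both panels, at -0.81 and -1.07, and none of the proteases is filled.

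Markers of the cell types in which these genes act also differed from room air in OIR WT and in OIR KO. The counts called stand beside 16.0% of all genes tested in OIR WT and 10.4% in OIR KO. All 11 tip cell markers rose in OIR WT and in OIR KO against room air, with the largest changes for Adm (4.71) and Esm1 (3.64) in OIR WT and for Adm (3.88) and Apln (3.02) in OIR KO. Of these, Esm1, Kcne3 and Plaur lay below 0.5 FPKM in every room air library and passed the filter only through retinopathy libraries, so that they had to differ. Of 16 endothelial markers, 5 rose and 1 fell in OIR WT, and 8 rose in OIR KO. In OIR WT the largest change was that of Emcn (1.49), followed by Ptprb with -1.08, which did not pass the test (adjusted p = 0.0740), and the 1 that fell was Tek (-0.95). Of 10 tested pericyte and smooth muscle markers, 7 rose in OIR WT and 4 in OIR KO, led by Acta2 and Higd1b in OIR WT (2.40 and 1.77). No marker of these 3 lists was called between the retinopathy groups. From RA WT over OIR WT to OIR KO, summed tip cell markers were 15.7 to 22.1, 113.1 to 163.7 and 67.3 to 167.3 FPKM. Summed endothelial markers were 101.5 to 134.7, 132.8 to 177.4 and 164.3 to 227.5 FPKM, and summed pericyte and smooth muscle markers 44.8 to 58.6, 104.6 to 157.0 and 84.3 to 142.1 FPKM. The part of these cell types in the values of Dll4, Notch1, Notch3 and Notch4 was not tested. Of the other lists in OIR WT, Müller glia markers had 2 risen and 7 fallen of 12, astrocyte markers 3 and 1 of 4, microglia and macrophage markers 6 and 0 of 10, cone markers 0 and 1 of 6, and inner retinal neuron markers 0 and 7 of 14. No rod, pigment epithelium or lens marker was called there. In OIR KO against room air, Müller glia markers had 1 risen and 3 fallen of 12. Microglia and macrophage markers had 6 and 0 of 10 in that comparison, and inner retinal neuron markers 0 and 6 of 14. No astrocyte, cone, rod, pigment epithelium or lens marker was called in OIR KO against room air. Summed lens markers stood at 24.0 FPKM for RA WT 1 and at 14.7 for OIR KO 2, the library highest in Notch1 and Notch3, against 0.601 to 4.29 FPKM in the other libraries, and their part in those values was not tested.

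**Figure D5:**
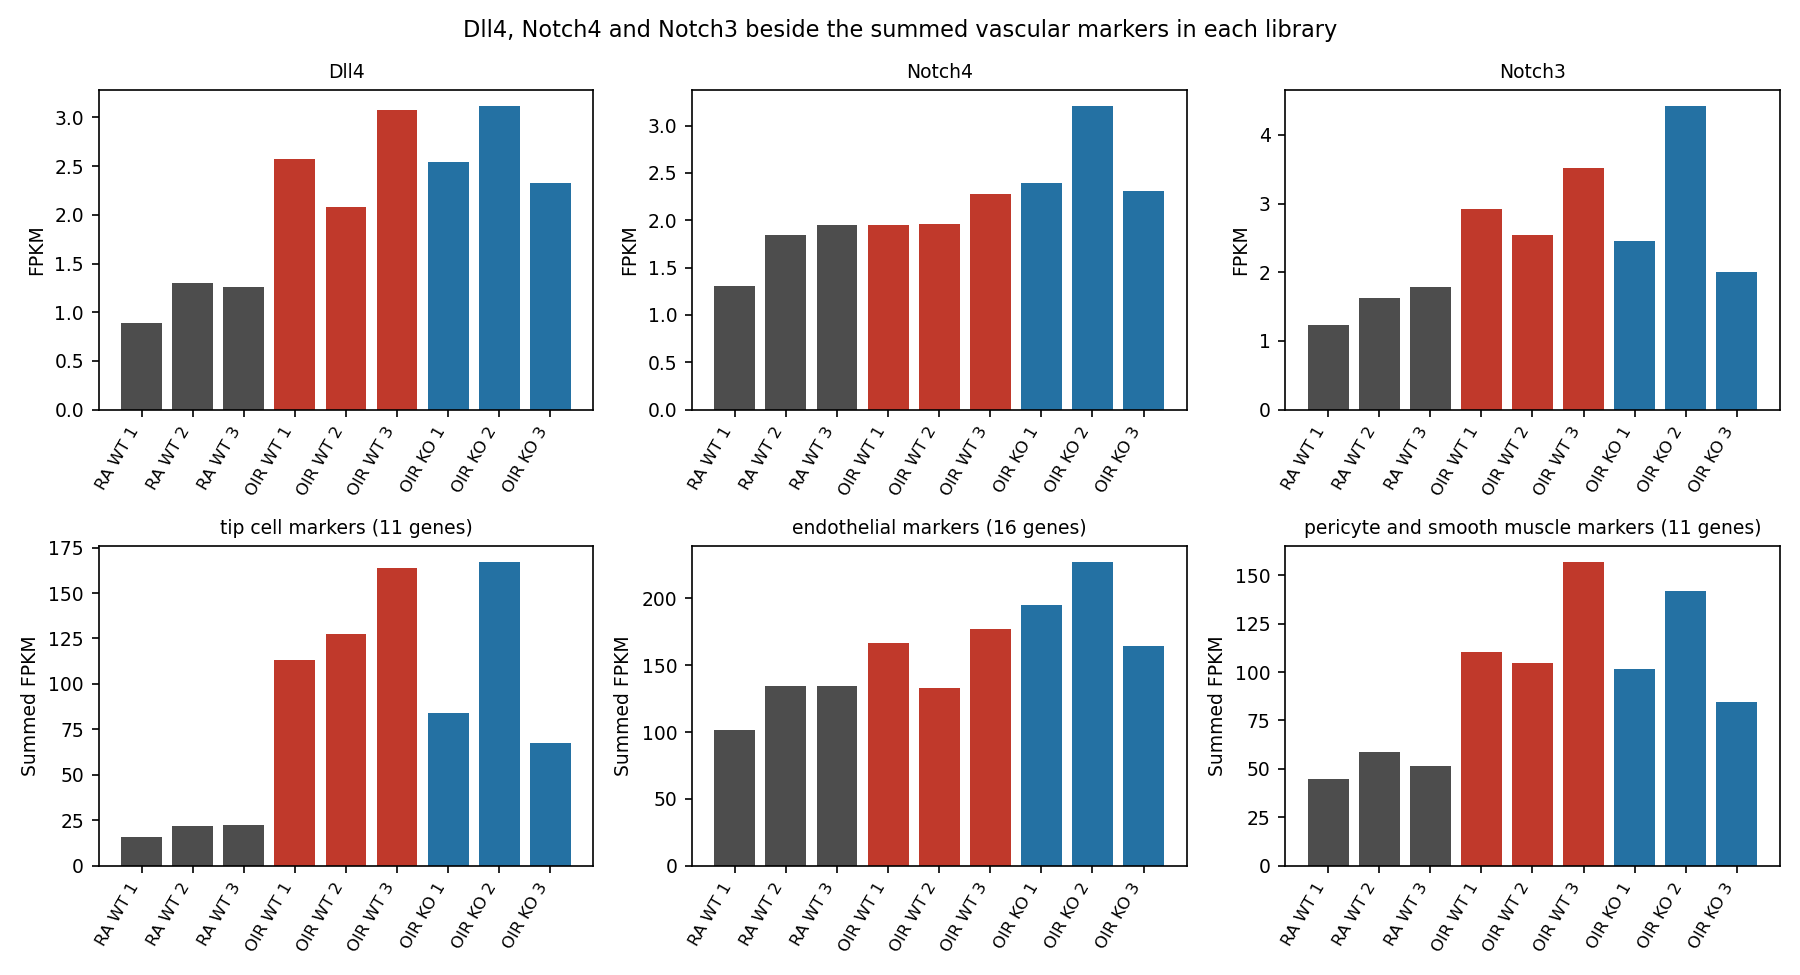
Dll4, Notch4 and Notch3 in FPKM (upper row) and the summed FPKM of tip cell, endothelial, and pericyte and smooth muscle markers (lower row), with 1 bar per library. OIR KO 2 is the highest bar of all 9 libraries for the 3 genes and for the tip cell and endothelial sums, and OIR WT 3 for the pericyte sum.

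The genes with the pattern most like the called members were sought among 12343 genes with a mean of at least 1 FPKM, by Pearson's r over the 9 libraries. These libraries fall into groups, and the genes of a library share its depth, so r is a description only. For Dll4 they were Ppic (r = 0.992), Cmtm3 (0.990) and Cd34, a surface protein of endothelial and progenitor cells (0.989). For Notch1 they were E2f6, a repressor of the E2F family (0.999), Chl1, a neural adhesion molecule (0.990) and Mest, an imprinted gene (0.990). Named after their values were seen, the genes most like Notch3 were Pdgfrb, the pericyte growth factor receptor, Casp8 and Zcchc24 (each 0.990). Those most like Notch4 were Pecam1, an endothelial junction protein (0.972), Lgals3bp (0.966) and Cd82 (0.966).

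Exons of Dll1, Dll4, Notch1 and Notch3 overlap annotated genes on the opposite strand, none of which is in the table, and an exon of Notch2 overlaps Gm42820 on the same strand, also not in the table, so that no strand setting would separate those reads. The sources used here give no strand setting for the counting, so reads of the 2 strands cannot be told apart for the first 4 of these members.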

How the data were processed

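Trizol extraction from frozen retinas and NEBNext Ultra libraries are given per the labels' protocols. Per the submitters' processing notes, reads were processed with HISAT2 and GRCm38; the sources used here give no version, quantifier or annotation. One table deposited by the authors holds FPKM per gene and library. Of its 25108 entries, 22036 have an Ensembl ID and 3072 are gene models without one. Among 4521 genes with 1 transcript, 26.7 to 29.9% of low values (up to 20 steps) lay within 0.02 of a whole read step, so reads were not recovered and no count model was run; total depth, and with it counting error, is unknown.

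FPKM was taken as log2(FPKM + 0.5). Genes with at least 0.5 FPKM in at least 3 of 9 libraries (15678) were fitted with limma 3.58.1 (R 4.3.3; trend and robust options) as 1 mean per group over all libraries, two-sided, with Benjamini-Hochberg adjustment over all of them. The code was tested on simulated data. Shares used exact permutation tests. The 19 alternatives changed the pseudocount, filter, scaling, fit options, covariates or libraries used.

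Members and lists were chosen with earlier results of these data known. Named are all members, pathway genes called in any comparison (at most 3 per role with values), and up to 2 markers of largest change per list. The 3 genes most like each called member are also named, and so are those most like Notch3 and Notch4. One called pathway gene is counted but not reported here by name. Coordinates are from GENCODE M21, promoters from RefSeq.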

Additional observations from a re-analysis of the deposited data

How the results depend on the processing

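Of the members' log2 changes under the 19 alternatives, 533 kept direction and side of the threshold, 10 lost a call, 5 gained one and 22 changed sign. Of 10 members in OIR WT against RA WT, 2 were called, and 1 without the filter on low values, without the trend and robust options, with the replicate block or with a Y-linked covariate (1 to 3 when 1 library was left out). All genes called there went from 2503 to 1581 with the Y-linked covariate (1031 to 2814 when 1 library was left out), and pathway genes from 9 to 3 with the block and 4 with the covariate (3 to 11).

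In OIR KO against RA WT, members called went from 1 to 2 with quantile normalization (1 to 2 when 1 library was left out), all genes from 1636 to 1081 with the block (709 to 1791), and pathway genes from 4 to 1 with the block and 2 with only the 2 groups compared (1 to 4). In OIR KO against OIR WT, all genes called went from 21 to 13 with a filter at 1 FPKM, 13 without the trend and robust options and 8 with the block (11 to 42 when 1 library was left out, the highest without OIR KO 2), and pathway genes stood at 0 to 1 when 1 library was left out.

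Sign changes concerned values near 0. Jag1 in OIR WT against RA WT went from -0.002 to 0.016 with the Y-linked covariate (-0.14 to 0.11 when 1 library was left out). Hey1 went from 0.026 to -0.015 with quantile normalization and -0.021 with median scaling (-0.041 to 0.085). In OIR KO against OIR WT, Dll1 went from -0.012 to 0.009, 0.007 and 0.004 with quantile normalization, median scaling and the covariate (-0.097 to 0.062), Dll4 lay at -0.075 to 0.16 and Notch3 at -0.35 to 0.14 when 1 library was left out, and Hes1 in OIR KO against RA WT at -0.23 to 0.13. The Notch3 share in OIR KO against OIR WT turned to 0.556 points with Notch4 left out of the sum (-1.34 to 0.985 when 1 library was left out), and the Dll4 share lay at -1.26 to 0.189. The causes were not tested.

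Replicate numbers did not pair the libraries. On each gene's deviation from its group mean, same-numbered libraries had r from -0.35 to 0.13, with 1 of 9 pairs over 0.1. By the same measure, 0 libraries correlated best with their own number in both other groups. The 3 groups share 1 estimate of the spread. With unknown depth, no limit from counting could be set.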
